A study of Mus musculus with 6 samples.

Results

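The autophagy genes are the core Atg genes and their partners, which build the autophagosome, load it with cargo and fuse it with the lysosome. They were taken by symbol: every probe set whose single annotated symbol is Atg followed by a digit, plus 22 further symbols, with the probe set of highest mean over the 6 arrays standing for each gene. This gave 39 genes from 43 probe sets, 18 of them Atg genes and 21 of the 22 further symbols, among 19938 genes tested. Optn, which encodes the cargo receptor optineurin, is not analysed here. The arrays compared 2 macrophage subsets of injured mouse muscle, 3 arrays of Ly6C- F4/80high cells and 3 of Ly6C+ F4/80low cells, with both subsets sorted from each of 3 mice. All mice were of strain B6.129P2-Lyzstm1(cre)Ifo/J, which carries Cre at the lysozyme locus, a myeloid driver, and the labels name no floxed allele. The tibialis anterior muscle of each animal was injured with cardiotoxin, a venom component that destroys fibres, and cells were collected on day 2. CD45+ cells were enriched with magnetic beads before the sort. The sources used here give no age or sex.

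In autophagy the ULK kinase complex starts the process, a class III PI3-kinase complex marks the membrane with the lipid PI3P, and PI3P readers with lipid carriers let the cup-shaped membrane grow. Ubiquitin-like conjugation enzymes then attach ATG8 proteins (the LC3 and GABARAP families) to the membrane, cargo receptors tie the load to them, and SNARE and tethering proteins fuse the closed vesicle with a lysosome. In macrophages the conjugation enzymes also act in LC3-associated phagocytosis, in which ATG8 proteins are placed on vesicles holding engulfed material, and autophagy genes are known to be needed as monocytes become macrophages.

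Genes for the kinase ULK2, the enzyme ATG10 and its substrate ATG5 had the largest differences, all in favour of the Ly6C- F4/80high cells. Becn1, Map1lc3b and Sqstm1, whose proteins are often used to follow autophagy, were not called. The arrays read RNA levels, and neither protein nor autophagic activity was measured. A gene was called at an adjusted p under 0.05 from limma, a linear model fitted to all genes with Benjamini-Hochberg adjustment. Of the 39 genes 12 were called higher in the Ly6C- F4/80high cells, 4 were called lower and 23 were not called. The called share was 41.0%, against 33.8% of all genes and 45.1% of the 12744 genes with a subset mean above background. The higher calls made up 30.8% of the autophagy genes, against 19.5% of all genes and 29.0% of genes above background. The lower calls made up 10.3%, against 14.3% and 16.2%. All 39 autophagy genes had a subset mean above the background of 5.44. The shares over genes above background are thus nearer than those over all genes, and the autophagy genes lie close to them. All 39 were also kept when the 50% of genes of lowest mean level were left out. In that fit 56.4% of the autophagy genes and 57.4% of all genes kept were called. Higher calls made up 77.3% and 66.3% of these calls. The shares of 29.0% and 16.2% used below are not matched for level beyond background. Background is the 95th percentile of the mean levels of 1194 olfactory and vomeronasal receptor genes.

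The differences were mostly moderate. They are given throughout on the log2 scale, with the Ly6C+ F4/80low mean subtracted from the Ly6C- F4/80high mean, and ran between -0.57 for Map1lc3a and 1.01 for Atg10, with a median of 0.14, against 0.02 over genes above background and -0.06 over all genes. Over the genes left without the 50% of lowest mean level, the median was 0.09. Only Atg10 was both called and at least 2-fold different, 1 of 39 genes (2.56%), against 4.53% of genes above background and 2.92% of all genes. Between subsets, no overlap of arrays was found for 26 of the 39 genes (66.7%), against 60.6% of genes above background and 48.1% of all genes. In all 3 mice 29 genes (74.4%) differed in the same direction, against 70.8% of genes above background and 61.0% of all genes. Both shares are thus near those of genes above background. The SD within a subset had a median of 0.08 over the members and reached 0.35 for Atg101 in the Ly6C- F4/80high cells. The split of calls moved with the scaling, to 11 higher and 6 lower after quantile normalization or cyclic loess and to 18 higher and 3 lower with a common median. Over all genes it was 3887 higher and 2861 lower, and 4789 and 1737 with a common median. Quantile normalization gave 3571 higher and 2299 lower over all genes, and cyclic loess gave 3643 and 2339. Under both scalings, lower calls thus fell over all genes but rose among the autophagy genes. The share of calls that were higher rose from 57.6% to 60.8% and 60.9% over all genes. Among the autophagy genes it fell from 75% to 64.7% under both. Calls for 10 genes held under all 18 alternatives run, and each of the 10 was a call of a higher Ly6C- F4/80high level: Ulk2, Pik3r4, Atg14, Wipi1, Atg10, Atg5, Atg4a, Calcoco1, Nbr1 and Stx17. The share of calls over all genes that held in this way is not given here, so this direction is not shown to be particular to the autophagy genes. Without mouse 3, lower calls over all genes fell from 2861 to 1321 and higher ones from 3887 to 2677.

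**Figure D1:**
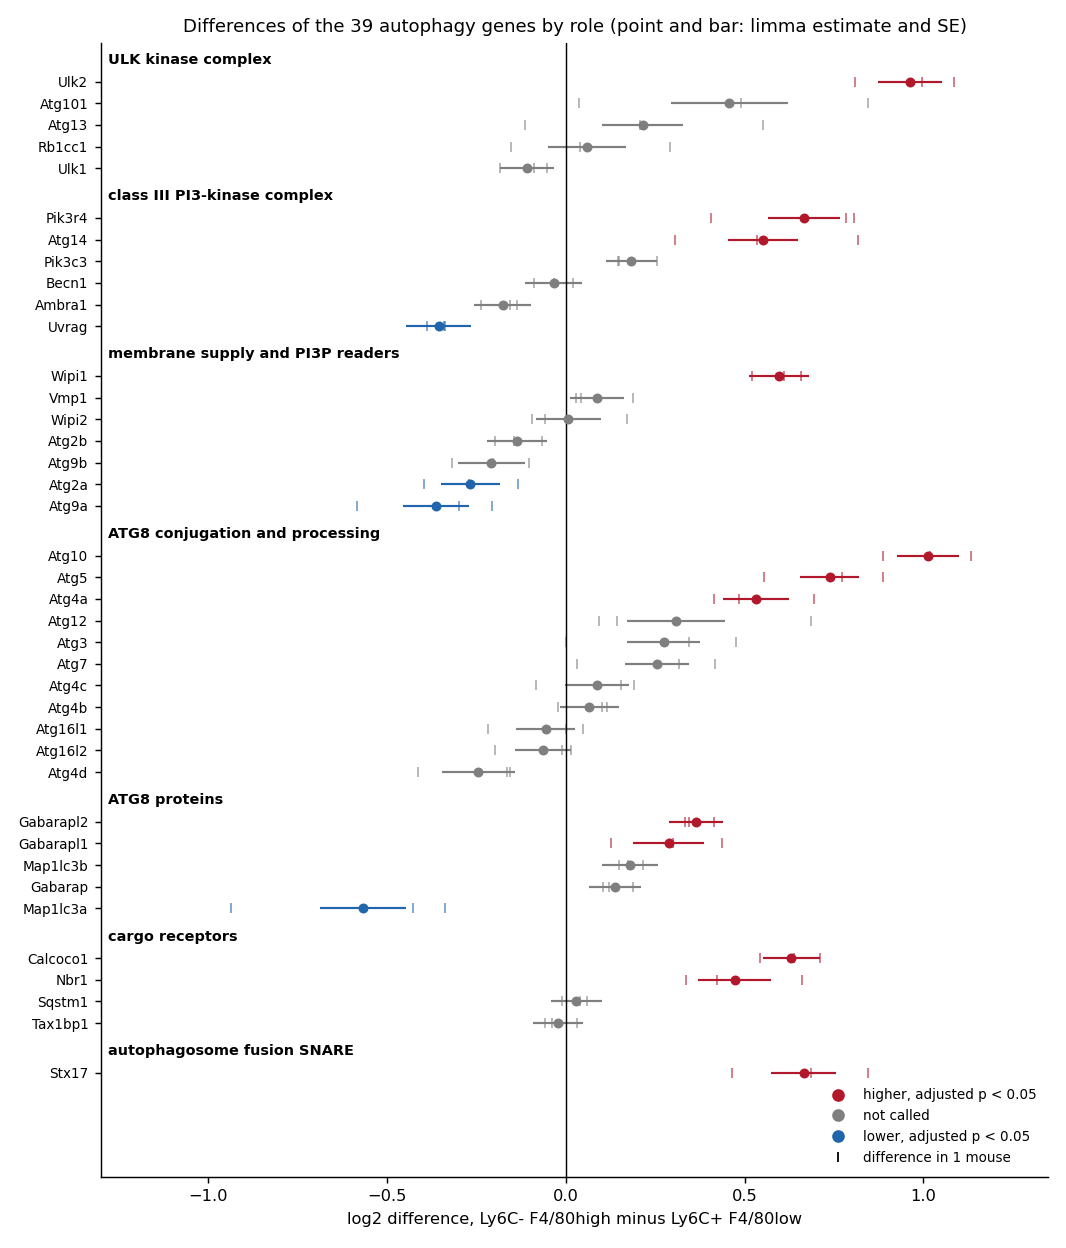
Log2 difference (Ly6C- F4/80high minus Ly6C+ F4/80low, horizontal axis) of each of the 39 autophagy genes, grouped by role, with the limma estimate as a point, its SE as a bar and the difference within each of the 3 mice as a tick. Red points (12 genes) were called higher, blue points (4 genes) lower and grey points (23 genes) not called; Atg10 at 1.01 and Map1lc3a at -0.57 are the extremes.

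Levels are the authors' log2 RMA values, in which levels of different genes cannot be set against each other. Across probe sets, correlations within a subset were 0.990 to 0.993 and those between subsets 0.979 to 0.982. All 8 macrophage markers examined were above background in both subsets, with calls in both directions, 3 higher and 3 lower. Adgre1 (F4/80, a sorting marker), Cd68 and Mertk were higher by 0.73, 0.31 and 1.57. Ptprc (CD45, used for the bead enrichment), Itgam and Fcgr1 were lower (-0.64, -0.23 and -0.28), and Csf1r and Lyz2 were not called. Lyz2 is the lysozyme gene at whose locus these mice carry Cre, and the effect of that allele on its level was not tested. Markers of dividing cells were higher in 5 of 5 measured cases, with a mean level per array of 7.22 to 7.38 in the Ly6C- F4/80high cells and 5.78 to 5.79 in the Ly6C+ F4/80low cells. Markers of several other cell types were lower. Fibroblast markers were lower in 5 of 6 cases (5.33 to 5.39 against 5.68 to 6.07 in the Ly6C+ F4/80low cells), with Lum under background in both subsets. Endothelial markers were lower in 4 of 5 (5.76 to 5.84 against 6.41 to 6.47), with Tek under background in both. Dendritic cell markers were lower in 4 of 6 (5.17 to 5.23 against 5.78 to 5.88), with Dpp4 and Xcr1 under background in both. Neutrophil markers were lower in 3 of 10 (5.12 to 5.26 against 5.37 to 5.46), with Ngp, Ltf, Cxcr2, Retnlg, Ly6g and Elane under background in both subsets. Of the remaining lists, T and NK cell markers were lower in 1 of 7 cases, mast cell, basophil and eosinophil markers in 2 of 6 and muscle markers in 1 of 8, while 1 of 4 B cell markers was higher and 0 of 2 erythroid markers were called. Over all genes 19.5% were called higher and 14.3% lower. The part of dividing or other cells in the differences described here was not tested. In sorted bulk RNA, fewer cells of a type and less RNA per cell cannot be told apart.

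The promoters of 5 members are shown for short motifs read by transcription factors of autophagy: all 4 that hold CACGTG and, of the 5 that hold TGACNNNGC, that of Ulk2, the one called gene among them, taken after its value was seen. Windows of 250 bases before to 50 after the annotated start, from RefSeq on assembly GRCm38.p6, were found for 33 of the 39 genes. The palindrome CACGTG, the core of the element bound by the TFEB, TFE3 and MITF family, lay in the windows of 4 of the 33 genes (12.1%), against 8.09% of the 27025 genes and 7.15% of all windows in that table. These were Atg3 (chr16:45158579-45158878, plus strand), Atg5 (chr10:44268089-44268388, plus strand), Atg7 (chr6:114670846-114671145, plus strand) and Atg14 (chr14:47568385-47568684, minus strand). The longer form GTCACGTG, which contains CACGTG, was found on either strand in 3 of the 33 (Atg3, Atg7 and Atg14, 9.09%), against 2.55% of genes and 2.25% of windows. The motif TGACNNNGC, the core of the antioxidant response element bound by NFE2L2 (NRF2), was found on either strand in 5 of 33 (Atg13, Map1lc3b, Tax1bp1, Ulk2 and Vmp1, 15.2%), against 14% of genes and 12.4% of windows. No member held both CACGTG and TGACNNNGC. In the sequences, written 5′ to 3′ along the gene's strand, capitals mark CACGTG in the first 4 and TGACNNNGC in that of Ulk2 (chr11:61855043-61855342, minus strand).
Atg3: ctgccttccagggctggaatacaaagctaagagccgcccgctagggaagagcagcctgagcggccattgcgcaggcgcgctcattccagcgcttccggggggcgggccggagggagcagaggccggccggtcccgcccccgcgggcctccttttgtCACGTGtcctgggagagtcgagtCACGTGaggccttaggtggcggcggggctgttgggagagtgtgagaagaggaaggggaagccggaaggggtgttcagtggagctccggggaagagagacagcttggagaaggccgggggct
Atg5: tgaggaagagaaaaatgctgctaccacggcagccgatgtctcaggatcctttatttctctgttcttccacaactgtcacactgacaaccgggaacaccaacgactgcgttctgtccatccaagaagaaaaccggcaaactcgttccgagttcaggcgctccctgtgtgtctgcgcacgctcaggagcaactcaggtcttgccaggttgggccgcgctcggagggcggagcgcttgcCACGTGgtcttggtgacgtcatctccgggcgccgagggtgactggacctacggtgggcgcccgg
Atg7: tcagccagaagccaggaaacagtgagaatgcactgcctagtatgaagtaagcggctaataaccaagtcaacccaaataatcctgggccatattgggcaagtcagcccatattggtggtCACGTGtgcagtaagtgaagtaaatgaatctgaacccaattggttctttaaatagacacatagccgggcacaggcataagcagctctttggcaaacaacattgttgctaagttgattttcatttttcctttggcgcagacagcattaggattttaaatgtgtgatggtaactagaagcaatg
Atg14: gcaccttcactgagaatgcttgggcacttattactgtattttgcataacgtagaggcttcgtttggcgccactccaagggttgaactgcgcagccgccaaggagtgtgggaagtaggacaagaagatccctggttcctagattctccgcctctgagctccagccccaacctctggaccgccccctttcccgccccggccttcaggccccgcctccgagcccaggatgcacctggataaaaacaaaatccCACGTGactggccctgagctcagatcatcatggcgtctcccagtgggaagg
Ulk2: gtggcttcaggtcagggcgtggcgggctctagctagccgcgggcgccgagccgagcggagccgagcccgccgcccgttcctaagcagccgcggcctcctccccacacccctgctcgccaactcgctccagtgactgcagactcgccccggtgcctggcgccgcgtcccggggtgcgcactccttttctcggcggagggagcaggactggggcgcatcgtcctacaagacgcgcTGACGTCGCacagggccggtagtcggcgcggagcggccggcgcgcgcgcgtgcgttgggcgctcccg
Counted from the start site, CACGTG begins at -94 and again at -71 in the Atg3 window, at -132 in that of Atg7, at -14 in that of Atg5 and at -1 in that of Atg14. A match describes these letters and shows no binding.

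Of the 5 measured genes of the ULK complex, which starts autophagosome formation when nutrients or growth signals fall, 1 was called higher and 4 were not called. The higher call makes up 20% of this role, against 29.0% of genes above background. Ulk2, which encodes one of the complex's alternative kinases, had levels of 8.21, 8.19 and 7.94 in the Ly6C- F4/80high cells and 7.12, 7.20 and 7.13 in the Ly6C+ F4/80low cells of mice 1, 2 and 3. The subsets were well apart, and Ulk2 was 1.95-fold higher (0.96, SE 0.09, limma adjusted p = 3.53e-05), a difference larger in size than that of 96.8% of all genes. Ulk1, the paralogous kinase gene, had 7.93, 8.0 and 7.83 in the Ly6C- F4/80high cells against 8.02, 8.05 and 8.02 in the Ly6C+ F4/80low cells. Its arrays also did not overlap, but lay close together and in the other direction (-0.11, SE 0.08, limma adjusted p = 0.285). The difference of Ulk2 exceeded that of Ulk1 by 1.07 (1.17, 1.05 and 0.99 in mice 1, 2 and 3).

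The scaffold genes varied more between mice. Atg101, which stabilises ATG13, averaged 7.44 ± 0.35 in the Ly6C- F4/80high cells and 6.98 ± 0.19 in the Ly6C+ F4/80low cells (SD, n = 3 each). Its difference of 0.46 (SE 0.16) was not called (limma adjusted p = 0.0548) and was called with the mouse as a block (adjusted p = 0.0482). Within mice it was 0.04, 0.49 and 0.84. A call was made under 8 of 18 alternatives, with the lowest p after leaving out the Ly6C- F4/80high array from mouse 1 (0.66, limma adjusted p = 0.0033). Atg13, the regulatory subunit, differed by 0.21 (SE 0.11) and Rb1cc1, which encodes the scaffold FIP200, by 0.06 (SE 0.11), with overlapping subsets for both.

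Genes of the class III PI3-kinase complexes, which make PI3P, differed in both directions. Of 6 genes, 2 (33.3%) were called higher, 1 (16.7%) lower and 3 not called. These shares are near the 29.0% and 16.2% of genes above background. Pik3r4, the gene of the regulatory subunit VPS15, had levels of 7.69, 7.82 and 7.47 in the Ly6C- F4/80high cells against 6.89, 7.04 and 7.07 in the Ly6C+ F4/80low cells. Every Ly6C- F4/80high array lay above every other, and the gene was 1.59-fold higher (0.67, SE 0.10, limma adjusted p = 0.000673). Atg14, whose product directs the complex to autophagosome formation, had 7.07, 6.82 and 6.86 in the Ly6C- F4/80high cells against 6.25, 6.51 and 6.32 in the Ly6C+ F4/80low cells. These groups did not overlap either, with a 1.47-fold higher level (0.55, SE 0.10, limma adjusted p = 0.00181).

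Uvrag encodes the subunit that takes the place of ATG14 in the complex that acts on endosomes and late autophagosomes. It had 9.26, 9.42 and 9.46 in the Ly6C- F4/80high cells against 9.6, 9.81 and 9.80 in the Ly6C+ F4/80low cells. All Ly6C- F4/80high arrays lay below the others, by -0.36 (SE 0.09, limma adjusted p = 0.0131), or 1.28-fold. The call was lost if mouse 2 (adjusted p = 0.0624), mouse 3 (adjusted p = 0.0684) or, of mouse 1, the Ly6C- F4/80high array (adjusted p = 0.0545) was left out. The difference of Atg14 exceeded that of Uvrag by 0.91 (1.16, 0.69 and 0.87 in mice 1, 2 and 3). Becn1, the shared subunit and a standard marker of the pathway, had 8.36, 8.53 and 8.46 in the Ly6C- F4/80high cells against 8.45, 8.56 and 8.44 in the Ly6C+ F4/80low cells. The subsets overlapped, and Becn1 differed by -0.03 (SE 0.08, limma adjusted p = 0.764). Pik3c3, the catalytic subunit, differed by 0.18 (SE 0.07) and Ambra1, a regulator of BECN1, by -0.18 (SE 0.08). Neither was called, although in each the subsets did not overlap, Pik3c3 was called higher under 3 of 18 alternatives, among them a common median, and Ambra1 lower under 2, quantile normalization and cyclic loess.

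Of 7 genes that supply and shape the growing membrane, 1 (14.3%) was called higher, 2 (28.6%) lower and 4 not called. The shares over genes above background were 29.0% and 16.2%. Wipi1, a PI3P reader at the forming autophagosome, had 6.80, 6.91 and 6.70 in the Ly6C- F4/80high cells against 6.14, 6.30 and 6.18 in the Ly6C+ F4/80low cells. Its subsets were separate and Wipi1 was 1.51-fold higher (0.60, SE 0.08, limma adjusted p = 0.000442). Wipi2, the paralogue that recruits ATG16L1, averaged 7.83 in both subsets (SD 0.02 in the Ly6C- F4/80high and 0.16 in the Ly6C+ F4/80low cells, n = 3 each) and differed by 0.01 (SE 0.09, limma adjusted p = 0.963). The difference of Wipi1 exceeded that of Wipi2 by 0.59 (0.49, 0.67 and 0.62 in mice 1, 2 and 3).

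Atg9a and Atg2a were called in the other direction. Atg9a, the membrane protein of the vesicles that seed the autophagosome, had 7.41, 7.70 and 7.54 in the Ly6C- F4/80high cells against 8.0, 7.90 and 7.84 in the Ly6C+ F4/80low cells. Atg2a, the lipid transfer protein, had 7.79, 8.04 and 7.91 in the Ly6C- F4/80high cells against 8.18, 8.17 and 8.18 in the Ly6C+ F4/80low cells. For both genes the Ly6C- F4/80high arrays lay below all others, Atg9a by -0.36 (SE 0.09, limma adjusted p = 0.0127) and Atg2a by -0.27 (SE 0.08, limma adjusted p = 0.0329). The Atg9a call was lost if mouse 1 (adjusted p = 0.126), mouse 3 (adjusted p = 0.0615) or, of mouse 1, the Ly6C- F4/80high array (adjusted p = 0.0520) was left out. Atg2a lost its call under 9 of 18 alternatives, among them a common median (adjusted p = 0.0938) and the mouse as a block (adjusted p = 0.0518). Leaving out any 1 of 5 arrays ended it too, the Ly6C- F4/80high array of mouse 2 being the exception. Their paralogues Atg9b (-0.21, SE 0.09) and Atg2b (-0.14, SE 0.08) were not called. A second Atg2b probe set differed by 0.03 (SE 0.07). Vmp1, an endoplasmic reticulum scramblase that acts with ATG9A, differed by 0.09 (SE 0.08) and was not called, with all Ly6C- F4/80high arrays above the others.

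The conjugation genes held the largest difference of the set. Of 11 genes, 3 (27.3%) were called higher, 0 lower and 8 neither way, against 29.0% higher and 16.2% lower among genes above background. The median was 0.26. Atg10, the E2-like enzyme that joins ATG12 to ATG5, had 7.96, 8.18 and 7.97 in the Ly6C- F4/80high cells against 7.08, 7.05 and 6.95 in the Ly6C+ F4/80low cells. The gap between the subsets was far wider than the spread within them, and Atg10 was 2.02-fold higher (1.01, SE 0.09, limma adjusted p = 1.92e-05). Atg5, the acceptor of ATG12, had 7.52, 7.34 and 7.47 in the Ly6C- F4/80high cells against 6.63, 6.79 and 6.70 in the Ly6C+ F4/80low cells. It was likewise without overlap and 1.67-fold higher (0.74, SE 0.08, limma adjusted p = 9.79e-05).

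Atg12, the ubiquitin-like protein joined by ATG10, had 7.28, 7.27 and 7.27 in the Ly6C- F4/80high cells against 6.60, 7.17 and 7.13 in the Ly6C+ F4/80low cells. In mouse 1 the Ly6C+ F4/80low level lay well under the other two of its subset, and the difference of 0.31 (SE 0.14) was not called (limma adjusted p = 0.109). Atg7, the E1-like enzyme of both conjugation systems, had 9.44, 9.53 and 9.67 in the Ly6C- F4/80high cells against 9.40, 9.21 and 9.25 in the Ly6C+ F4/80low cells. The subsets were separate only narrowly, and Atg7 fell just short of a call (0.26, SE 0.09, limma adjusted p = 0.0510). It was called under 8 of 18 alternatives, among them a common median and leaving out either array of mouse 1. Atg3, the E2-like enzyme that joins ATG8 proteins to lipid, differed by 0.27 (SE 0.10, limma adjusted p = 0.0657), with 0.00 in mouse 2 and 0.35 and 0.48 in mice 1 and 3. It was called under 6 of 18 alternatives, among them a common median and leaving out the Ly6C+ F4/80low array of mouse 2. The difference of Atg10 exceeded that of Atg3 by 0.74 (0.54, 1.13 and 0.54 in mice 1, 2 and 3). Atg16l1 and Atg16l2, scaffolds of the ATG12-ATG5 conjugate, both differed by -0.06 (SE 0.08 each) and were not called.

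Among the ATG4 proteases, which trim ATG8 proteins before conjugation and release them from membranes, only Atg4a was called. It had 7.37, 7.69 and 7.49 in the Ly6C- F4/80high cells against 6.95, 7.0 and 7.01 in the Ly6C+ F4/80low cells. The subsets did not overlap, and Atg4a was 1.45-fold higher (0.53, SE 0.09, limma adjusted p = 0.00153). A second Atg4a probe set also differed, by 0.42 (SE 0.07, limma adjusted p = 0.00944 over all probe sets). Atg4b, the most broadly active of these proteases, differed by 0.07 (SE 0.08), Atg4c by 0.09 (SE 0.09) and Atg4d by -0.24 (SE 0.10), none of them called. Atg4d was called lower under 4 of 18 alternatives, among them quantile normalization and cyclic loess. The difference of Atg4a exceeded that of Atg4b by 0.47 (0.30, 0.59 and 0.51 in mice 1, 2 and 3).

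**Figure D2:**
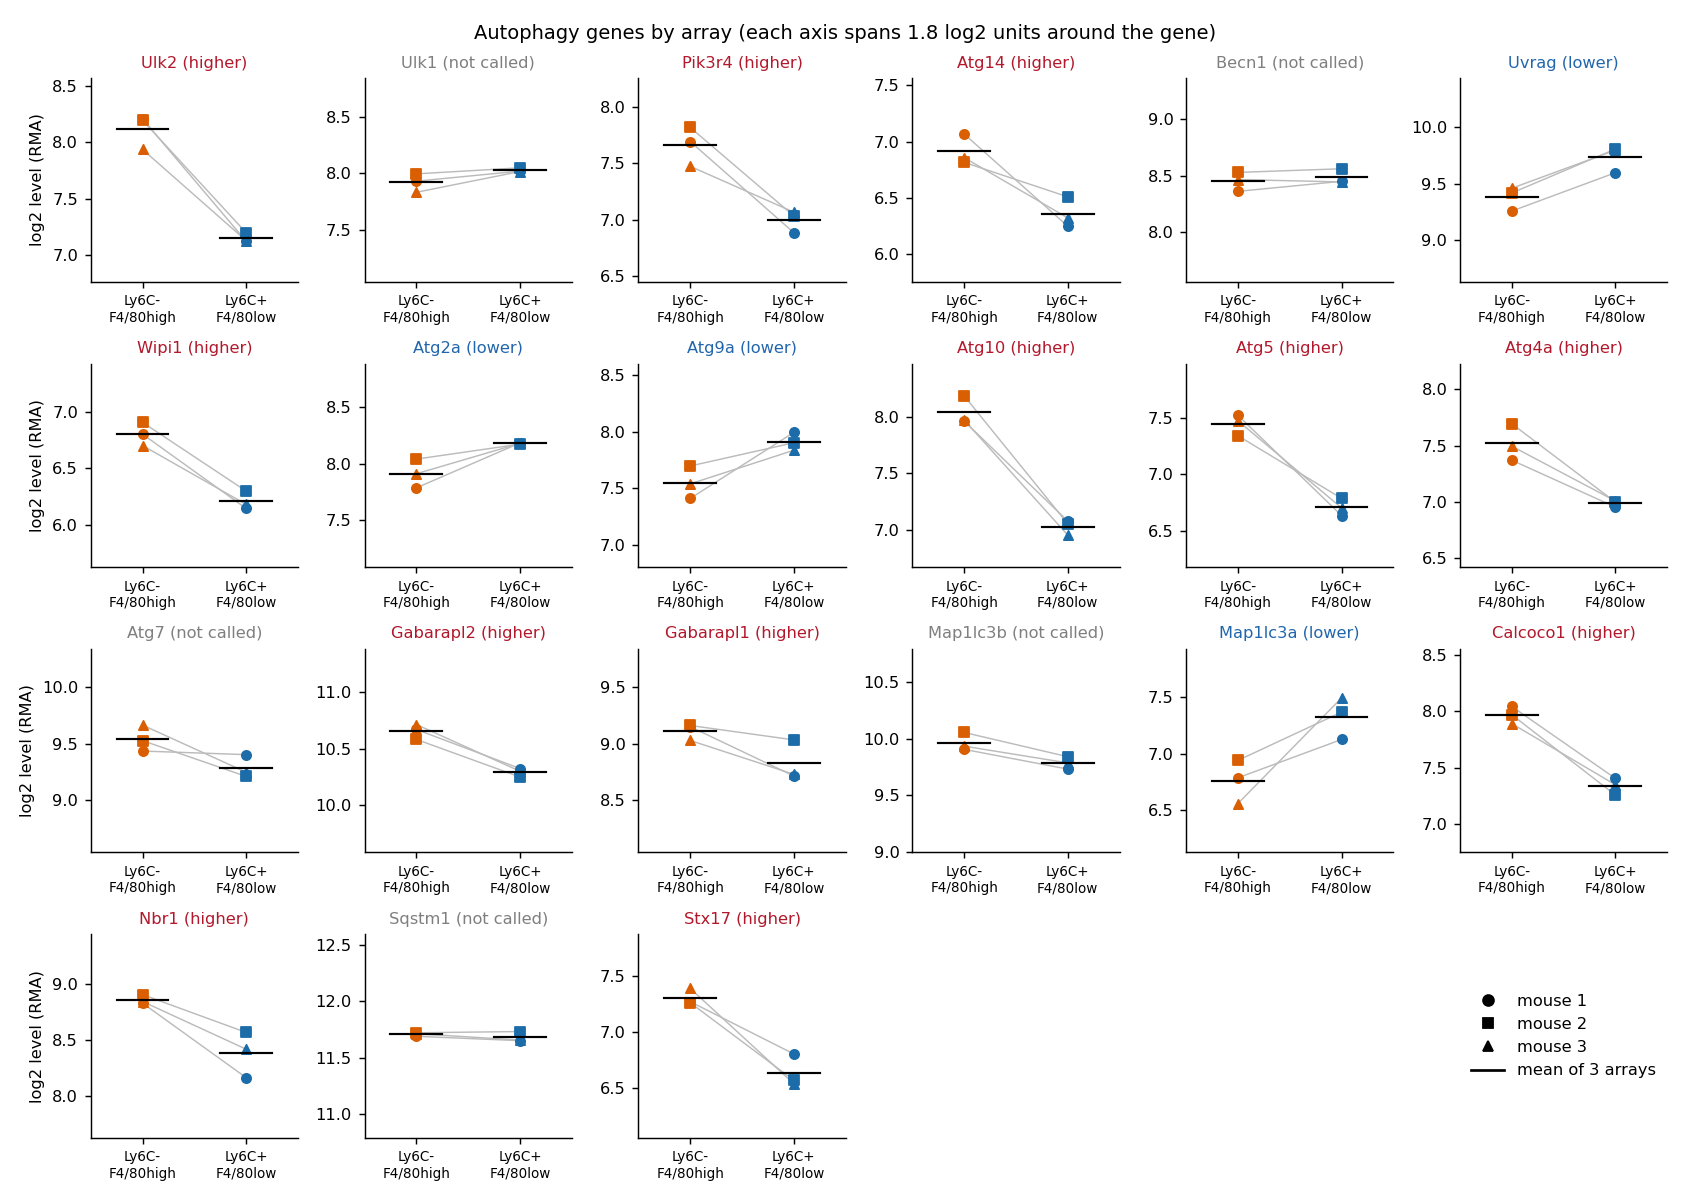
Log2 RMA level (vertical axes, each spanning the same 1.8 log2 units) of 21 autophagy genes on the 3 Ly6C- F4/80high arrays (left, orange) and the 3 Ly6C+ F4/80low arrays (right, blue), with grey lines joining the arrays of a mouse and black bars at the subset means. Atg10, Ulk2 and Atg5 show wide gaps between the subsets, Uvrag, Atg2a, Atg9a and Map1lc3a lie lower on the left, and Sqstm1 and Becn1 overlap.

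The ATG8 genes encode the proteins that coat the autophagosome and bind cargo receptors. Of these 5 genes, 2 (40%) were called higher, 1 (20%) lower and 2 not called. Over genes above background 29.0% were called higher and 16.2% lower. Map1lc3a, which encodes LC3A, had 6.79, 6.94 and 6.56 in the Ly6C- F4/80high cells against 7.13, 7.37 and 7.5 in the Ly6C+ F4/80low cells. All Ly6C- F4/80high arrays lay under the others, by -0.57 (SE 0.12, limma adjusted p = 0.00502), or 1.48-fold. The within-mouse differences were -0.34, -0.43 and -0.94, and the call was lost without mouse 3 (-0.38, adjusted p = 0.0639). Map1lc3b, which encodes LC3B, the form most used to follow autophagy, had 9.91, 10.06 and 9.93 in the Ly6C- F4/80high cells against 9.73, 9.84 and 9.79 in the Ly6C+ F4/80low cells. The subsets were separate by a narrow margin, and the difference of 0.18 (SE 0.08) was not called (limma adjusted p = 0.101), nor was that of 0.21 (SE 0.08) on a second probe set. It was called under 3 of 18 alternatives, among them a common median. The difference of Map1lc3b exceeded that of Map1lc3a by 0.75 (0.51, 0.64 and 1.08 in mice 1, 2 and 3).

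Gabarapl2, which encodes GATE-16 of the GABARAP branch, had 10.67, 10.58 and 10.71 in the Ly6C- F4/80high cells against 10.32, 10.25 and 10.30 in the Ly6C+ F4/80low cells. The subsets were apart, by 0.36 (SE 0.07, limma adjusted p = 0.00417). A second probe set annotated to Gabarapl2 gave another picture, averaging 5.42 ± 0.18 in the Ly6C- F4/80high and 5.41 ± 0.10 in the Ly6C+ F4/80low cells (SD, n = 3 each), near the background, with a difference of 0.01 (SE 0.11). Which of the probe sets reads the gene is not stated in the sources used here, and with their mean the call was lost (0.19, adjusted p = 0.0766), as it was without mouse 3 (0.34, adjusted p = 0.0526). Gabarapl1 had 9.15, 9.16 and 9.03 in the Ly6C- F4/80high cells against 8.71, 9.03 and 8.73 in the Ly6C+ F4/80low cells. The subsets overlapped by a small margin, and the call was borderline (0.29, SE 0.10, limma adjusted p = 0.0485) and lost under 10 of 18 alternatives, among them quantile normalization (0.24, adjusted p = 0.0819) and leaving out any 1 of 5 arrays, all but the Ly6C+ F4/80low array of mouse 2. Gabarap itself differed by 0.14 (SE 0.07, limma adjusted p = 0.165).

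Cargo receptors tie ubiquitinated or other cargo to ATG8 proteins, and 2 of the 4 measured genes (50%) were called higher. The share over genes above background was 29.0%. Calcoco1, a receptor for the endoplasmic reticulum, had 8.04, 7.97 and 7.89 in the Ly6C- F4/80high cells against 7.41, 7.26 and 7.35 in the Ly6C+ F4/80low cells. The groups were well apart and Calcoco1 was 1.55-fold higher (0.63, SE 0.08, limma adjusted p = 0.000215). Nbr1, a receptor for protein aggregates and peroxisomes, had 8.83, 8.90 and 8.84 in the Ly6C- F4/80high cells against 8.17, 8.57 and 8.42 in the Ly6C+ F4/80low cells. Here too every Ly6C- F4/80high array was above the others, and the level was 1.39-fold higher (0.47, SE 0.10, limma adjusted p = 0.00568).

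Sqstm1, which encodes p62, the best-known receptor, had 11.69, 11.72 and 11.71 in the Ly6C- F4/80high cells against 11.65, 11.73 and 11.66 in the Ly6C+ F4/80low cells. The subsets overlapped within a narrow range, and the difference of 0.03 (SE 0.07) was not called (limma adjusted p = 0.775). The difference of Nbr1 exceeded that of Sqstm1 by 0.44 (0.62, 0.35 and 0.36 in mice 1, 2 and 3). Tax1bp1, a receptor that works with NBR1 and p62 on aggregates, differed by -0.02 (SE 0.07, limma adjusted p = 0.827), with overlapping subsets.

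Each of these 9 comparisons between partner or paralogous genes, the eighth setting Gabarapl2 against Map1lc3a (0.93) and the ninth Wipi1 against Atg2a (0.86), gave non-overlapping subsets. By an exact two-sided permutation test over the 6 arrays each had p = 0.10, also after adjustment over the 9. That is the smallest p this test allows with 3 arrays against 3, so it cannot reach 0.05. The test treats the arrays as independent and leaves out that both subsets came from the same mice. The 9 pairs were chosen after the values were seen.

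Stx17, the SNARE that closed autophagosomes carry for fusion with lysosomes, had 7.27, 7.26 and 7.39 in the Ly6C- F4/80high cells against 6.81, 6.57 and 6.54 in the Ly6C+ F4/80low cells. The subsets did not overlap and Stx17 was 1.59-fold higher (0.67, SE 0.09, limma adjusted p = 0.000364). Its fusion partners and the tethers that bring the membranes together lie outside the 39 genes. Of 14 such fusion and tethering genes, 11 (78.6%) were called higher and 0 lower, against 29.0% and 16.2% of genes above background, and their median was 0.37. The list was chosen with earlier results of these data known, so the share only describes these genes. Vps39 and Vps41, of the HOPS complex that tethers autophagosomes to lysosomes, averaged 8.84 ± 0.11 and 9.16 ± 0.01 in the Ly6C- F4/80high cells against 7.98 ± 0.07 and 8.40 ± 0.13 in the Ly6C+ F4/80low cells (SD, n = 3 each). Vps39 was higher by 0.87 (SE 0.08, limma adjusted p = 4.14e-05) and Vps41 by 0.76 (SE 0.08, limma adjusted p = 9.52e-05). Snap29, whose product pairs with syntaxin 17, was higher by 0.54 (SE 0.07, limma adjusted p = 0.000380), while Vamp8, the third SNARE of that set, differed by 0.22 (SE 0.09, limma adjusted p = 0.0794). Snap29 and Vamp8 are named as partners of Stx17, after their values were seen.

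A list of 15 measured genes of organelle-selective autophagy and mitophagy held receptors and other factors, such as the kinases encoded by Pink1 and Tbk1. Of these 15 genes, 11 (73.3%) were called higher, 2 (13.3%) lower and 2 neither way, against 29.0% higher and 16.2% lower among genes above background, and the median was 0.42. This list too was chosen with earlier results of these data known. Bnip3l, the mitophagy receptor NIX, averaged 11.72 ± 0.07 in the Ly6C- F4/80high cells and 10.84 ± 0.07 in the Ly6C+ F4/80low cells (SD, n = 3 each), a difference of 0.88 (SE 0.08, limma adjusted p = 2.54e-05). Tex264, a receptor for endoplasmic reticulum, was higher by 0.86 (SE 0.10, limma adjusted p = 9.58e-05). The related mitophagy receptor gene Bnip3 went the other way at -0.68 (SE 0.17, limma adjusted p = 0.0116), a call lost without mouse 2 (adjusted p = 0.0578). Retreg1, another receptor for endoplasmic reticulum, was lower too (-0.39, SE 0.09, limma adjusted p = 0.00793), a call lost without mouse 3 (adjusted p = 0.0807).

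**Figure D3:**
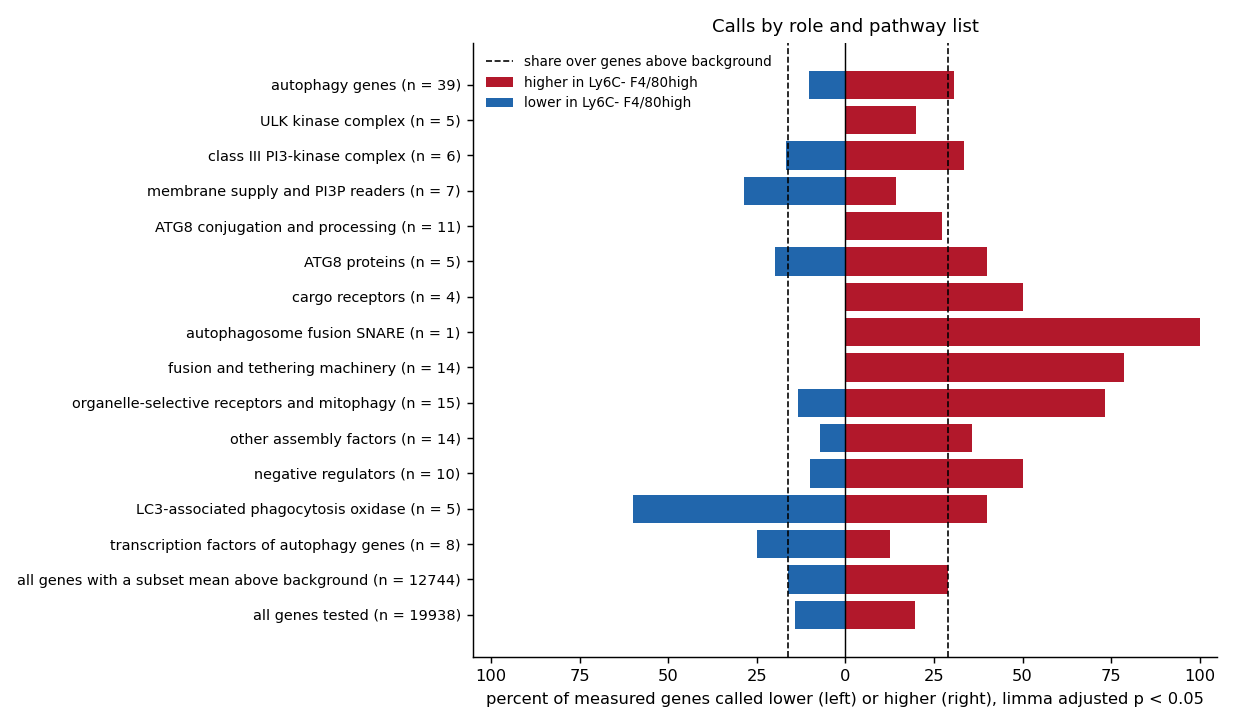
Percent of measured genes called higher (right, red) or lower (left, blue) in the Ly6C- F4/80high cells by limma at an adjusted p under 0.05, for the 39 autophagy genes, their 7 roles, 6 lists of other pathway genes and all genes. Dashed lines mark the shares over the 12744 genes with a subset mean above background, 29.0% higher and 16.2% lower. Fusion and tethering genes reach 78.6% higher, and the roles hold between 1 and 11 genes each. The lists were chosen with earlier results of these data known, and that of negative regulators also holds genes that favour autophagy.

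Over all 6 lists of other pathway genes, 66 of 68 were measured, of which 35 (53.0%) were called higher, 9 (13.6%) lower and 22 neither way, and the median was 0.26. Among genes above background the shares were 29.0% higher and 16.2% lower. Leaving out mouse 3 changed these counts to 20 higher and 2 lower, and 25 of the 44 calls were lost under at least 1 alternative. Without the 50% of genes of lowest mean level, 65 of the 66 were kept, with 37 called higher and 10 lower. In that fit 57.4% of all genes kept were called, against 45.1% of genes above background in the main fit. Genes above background are thus a low comparison for these lists. Among 14 other assembly factors, 5 (35.7%) were called higher, 1 (7.14%) lower and 8 not. Ei24, an endoplasmic reticulum protein needed for breakdown of autophagosome cargo, led these at 0.40 (SE 0.08, limma adjusted p = 0.00396), a call lost without mouse 3 (adjusted p = 0.0534), and Trp53inp1, a stress-induced protein that binds ATG8 proteins, followed at 0.35 (SE 0.10, limma adjusted p = 0.0179), a call lost under 7 of 18 alternatives. Trp53inp2, a nuclear protein that moves out to bind ATG8 proteins, was lower by -0.36 (SE 0.08, limma adjusted p = 0.00819), a call lost without mouse 1 or mouse 3.

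Among genes above background 29.0% were called higher and 16.2% lower. Of 10 genes listed as negative regulators, 5 (50%) were called higher, 1 (10%) lower and 4 neither way, but the list is mixed. Dapk1 and Usp10, 2 of the 5 called higher, and Usp13, which was not called, are known to act on BECN1 in favour of autophagy, so this is no count of inhibitors. The other 3 higher calls were Rubcn, Bcl2 and Zkscan3, a transcriptional repressor of autophagy genes. Rubcn, which encodes Rubicon, a brake on the UVRAG-containing kinase complex that is also needed for LC3-associated phagocytosis, averaged 7.38 ± 0.08 in the Ly6C- F4/80high cells and 6.72 ± 0.18 in the Ly6C+ F4/80low cells (SD, n = 3 each). It was higher by 0.66 (SE 0.10, limma adjusted p = 0.000657). Bcl2, which binds BECN1, was higher by 0.39 (SE 0.08, limma adjusted p = 0.00439). Rubcnl, which encodes Pacer, a Rubicon relative reported to act the opposite way, was lower by -0.24 (SE 0.08, limma adjusted p = 0.0355), a call lost under 10 of 18 alternatives. Of the 5 measured NADPH oxidase genes of LC3-associated phagocytosis, 2 (40%) were called higher and 3 (60%) lower. Ncf4, whose product p40phox binds PI3P, averaged 8.68 ± 0.10 in the Ly6C- F4/80high cells and 9.68 ± 0.05 in the Ly6C+ F4/80low cells (SD, n = 3 each), a difference of -0.99 (SE 0.08, limma adjusted p = 1.25e-05). The calls of the other 4, Ncf1 (0.30), Cyba (0.29), Cybb (-0.25) and Rac2 (-0.26), were lost under 4, 9, 10 and 9 of 18 alternatives.

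Of 8 transcription factors known to drive autophagy genes, 1 (12.5%) was called higher, 2 (25%) lower and 5 not called. The called share of 37.5% lies between the 33.8% of all genes and the 45.1% of genes above background. Mitf averaged 9.72 ± 0.05 in the Ly6C- F4/80high cells and 9.06 ± 0.07 in the Ly6C+ F4/80low cells (SD, n = 3 each), 0.66 higher (SE 0.08, limma adjusted p = 0.000131). Its relatives Tfeb and Tfe3, which bind the same CACGTG element, differed by 0.07 (SE 0.11) and -0.01 (SE 0.07) and are named after their values were seen. Among the 4 members with CACGTG in the promoter window shown above, Atg5 and Atg14 were called higher and Atg3 and Atg7 were not called. Over genes above background 29.0% were called higher, and a link between Mitf and these 4 genes was not tested. Nfe2l2, which encodes NRF2, was lower by -0.34 (SE 0.08, limma adjusted p = 0.00610), a call lost without mouse 3 (adjusted p = 0.0699). Of the 5 members with TGACNNNGC, Ulk2 was called higher and the other 4 were not called. Ddit3, the stress factor CHOP, was lower by -0.37 (SE 0.10, limma adjusted p = 0.0224), a call lost under 5 of 18 alternatives, among them a common median and leaving out the Ly6C- F4/80high array of mouse 1 or the Ly6C+ F4/80low array of mouse 3.

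**Figure D4:**
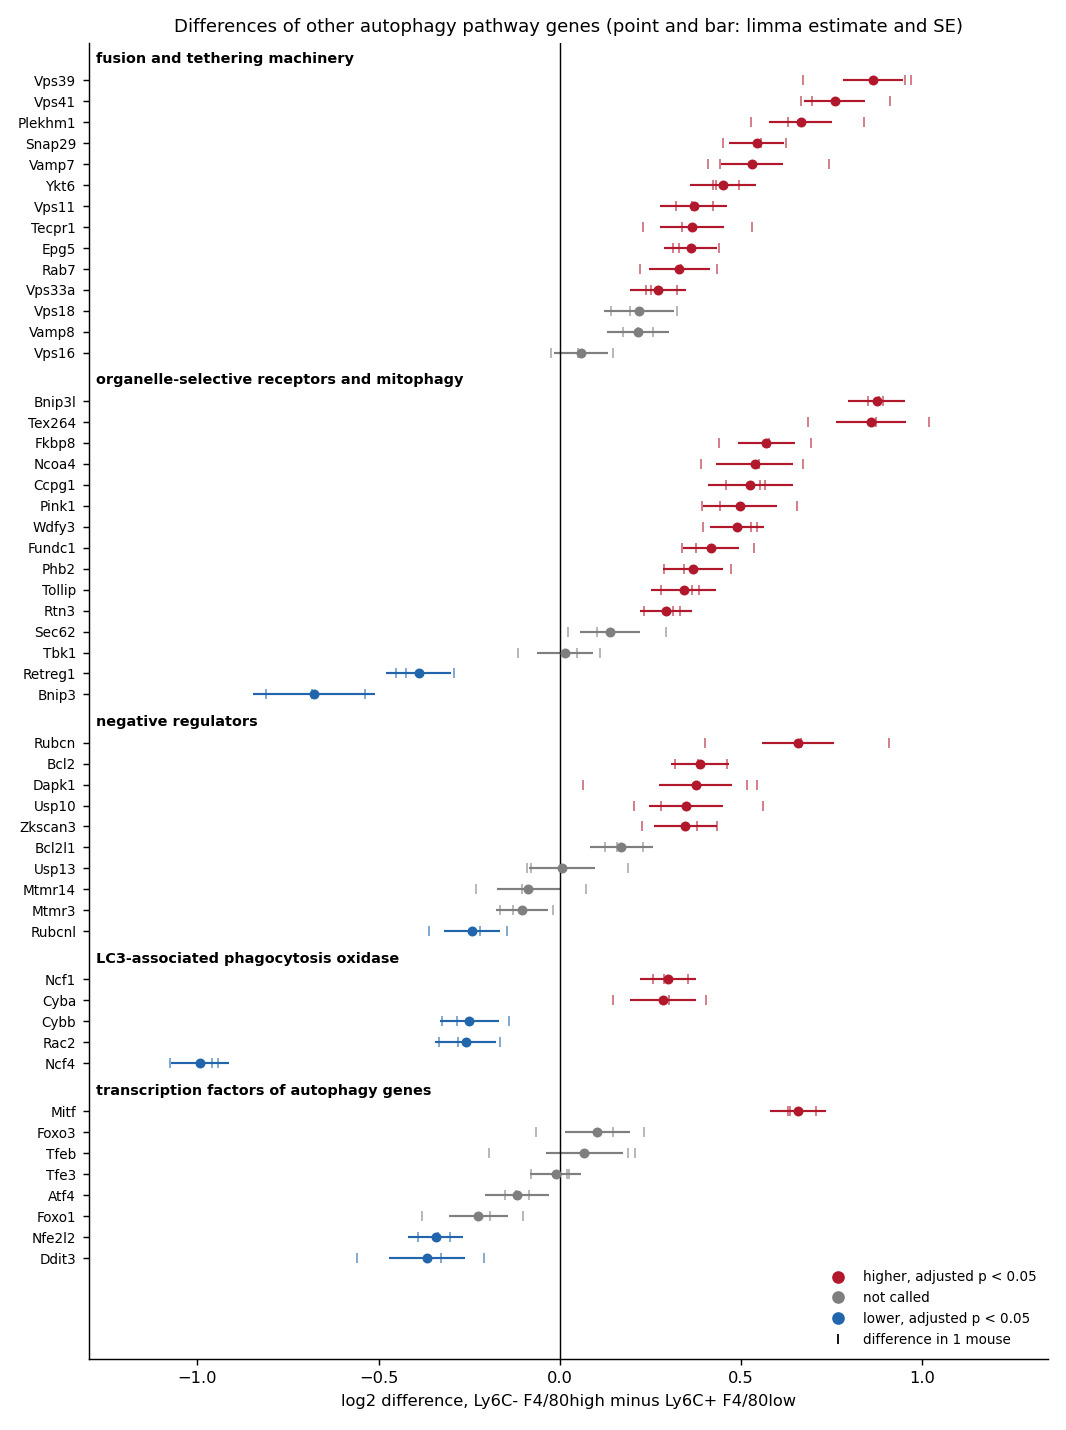
Log2 difference (Ly6C- F4/80high minus Ly6C+ F4/80low, horizontal axis) of 52 other pathway genes in 5 lists, with limma estimate, SE and the difference within each of the 3 mice as ticks. All 14 fusion and tethering genes lie at or above 0.06, Bnip3l at 0.88 and Bnip3 at -0.68 sit at the ends of the organelle-selective list, and Ncf4 at -0.99 is the lowest point drawn.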

How the data were processed

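Total RNA of 6 sorted samples, 150 ng each, was labelled with Affymetrix kits per the labels' protocols, 1 array per sample. The deposited log2 values were made by the authors with RMA, per the submitters' processing notes; the sources used here name no software or settings. The table has 35556 probe sets and no gaps. Weak signals are compressed by RMA, which understates their differences, and the number of arrays limits the precision.

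Probe sets were named from the platform annotation given with the values: 21789 had 1 symbol, 1621 several and 12146 none. Of the Entrez identifiers of the single-symbol probe sets 21698 were found in the RefSeq gene table and 0 symbols changed. The fit used limma 3.58.1 in R 4.3.3 on all 19938 genes, with no covariate and no filter, two-sided. The 3 mice give separate samples, and both subsets of a mouse share its number. Across genes, deviations of the arrays of 1 mouse from the subset mean correlated at 0.03, -0.08 and 0.09, and the mouse as a block was an alternative, as were other scalings, filters, probe set rules, priors, array weights and leaving out arrays or mice. The fit was tested on simulated data in which known changes had been set. With the raw spread of each probe set, fewer of the larger changes were recovered than the level asked for. The simulation was then repeated with limma's moderated spread, chosen after that first outcome, and the level was met. False calls were few and no sign was wrong under either, but most of the smaller changes, which were larger than the difference of any member left uncalled, were missed under both. In the simulation only a small part of the probe sets was changed, while 33.8% of all genes were called in the data. A call is thus harder to reach in the simulation, and its recovery does not carry over to this fit. In the data smaller differences were called, such as that of Atg2a (-0.27). A gene not called here is still not shown to be unchanged. Members, lists and background were chosen with earlier results of these data known. The lists hold other genes of the pathway, among them regulators, oxidase genes and transcription factors outside the roles of the 39. Genes outside the 39 were named as the called ones with the largest difference in each direction (up to 2 each). Others named beyond that rule were Snap29, Vamp8, Tfeb, Tfe3, Cybb, Dapk1, Usp10, Usp13 and Zkscan3, with Pink1 and Tbk1 as examples and those whose result changed with the processing. Members called with the 3 largest differences of a role, and Sqstm1, Map1lc3b, Becn1, Atg5, Atg7, Ulk1 and Wipi1, have values for every array.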

Additional observations from a re-analysis of the deposited data

How the results depend on the processing

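The number of autophagy genes called higher was 12 and stayed between 10 and 18 under all 18 alternatives, and the direction of no called gene turned. The number called lower was 4 and ran between 0 (without mouse 3) and 4 when arrays or mice were left out, with 1 if the Ly6C- F4/80high array of mouse 1 was left out and 2 without mouse 1. With the mouse as a replicate block, which pairs the arrays, 13 were higher and 3 lower, since Atg101 was gained and Atg2a lost. The block also ended the calls of Tmem41b, Sh3glb1, Rubcnl and Cybb and changed no other call among the members and other pathway genes. The median difference of the members, 0.14, was 0.088 after quantile normalization, 0.11 after cyclic loess, 0.21 with a common median and 0.11 to 0.16 when arrays or mice were left out. Other pathway genes called higher, 35, numbered 20 to 35 when arrays or mice were left out, and those called lower, 9, numbered 2 to 7 then and 5 with a common median. Leaving out arrays lowers the number of samples; otherwise the cause was not tested. Of the 16 called members 10 kept their call throughout and 6 lost it somewhere, while 8 of the 23 uncalled ones were called under at least 1 alternative. Like counts over all genes are not given here. Over all genes the number called lower, 2861, was 1737 with a common median, 1866 and 1790 if the Ly6C- F4/80high array of mouse 1 or 3 was left out, and 1574 and 1321 without mouse 1 or 3. Differences near 0 turned sign for 8 of the 39 members and 7 of the 66 other pathway genes, none of them called in the setting concerned. They turned after quantile normalization Atg4c (-0.0049), Rb1cc1 (-0.022), Sqstm1 (-0.020), Wipi2 (-0.084), Vps16 (-0.012), Tbk1 (-0.073), Nrbf2 (-0.020), Smcr8 (-0.026), Tfeb (-0.017). They turned after cyclic loess Rb1cc1 (-0.0057), Sqstm1 (-0.0098), Wipi2 (-0.073), Vps16 (-0.0029), Tbk1 (-0.069), Nrbf2 (-0.051), Smcr8 (-0.057), Tfeb (-0.0049). They turned with a common median Atg16l1 (0.020), Atg16l2 (0.012), Becn1 (0.043), Tax1bp1 (0.054), Tfe3 (0.065). They turned with array weights Wipi2 (-0.0096), Usp13 (-0.011). Leaving out arrays or mice, the differences of those that turned spanned 0: Atg16l1 (-0.11 to 0.024), Atg16l2 (-0.11 to 0.0027), Becn1 (-0.072 to 0.012), Rb1cc1 (-0.057 to 0.16), Wipi2 (-0.084 to 0.063), Tbk1 (-0.034 to 0.080), Nrbf2 (-0.12 to 0.10), Smcr8 (-0.0075 to 0.045), Usp13 (-0.084 to 0.076), Tfeb (-0.019 to 0.20), Tfe3 (-0.029 to 0.023).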
